A study of Mus musculus with 2 samples.

Results

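Progenitor cells that carried transcripts of neutrophil granule proteins but little or no Irf8 made up 359 of the 7823 cells kept from a single-cell RNA series of sorted mouse bone-marrow progenitors. They were chosen by their raw UMI counts (unique molecular identifiers, each counted once per captured RNA molecule): Mpo, Ctsg, Elane and Ms4a3 together at 4 UMIs or more, Irf8 at most 1, Dntt at most 1 and Il7r at 0, in barcodes with at least 500 detected genes and a mitochondrial share of UMIs below 10%. The study compared 1 sample of C57BL/6 Spp1-/- mice with 1 sample of C57BL/6 WT mice, all given an intraperitoneal injection of thioglycollate, which provokes a sterile peritonitis, 20 hours earlier. Bone-marrow multipotent progenitors were sorted on lineage markers (negative) and on Sca-1, c-kit, CD34 and a marker the labels write as Flt3L (all positive), and were run on the 10x droplet platform, which reads RNA at its 3′ end. How many mice were pooled was not given. Both libraries stood in 1 matrix and were told apart by a barcode suffix, which no label or file tied to a genotype, so they are called library 2 and library 1 and no direction by genotype was drawn. Each genotype had 1 library, so no difference had a replicate check or a test, and all intervals are 95% intervals of counting error only.

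Neutrophil granules are filled in order as a granulocyte matures. The azurophil granules come first and hold myeloperoxidase and the serine proteases elastase, cathepsin G and proteinase 3, and the secondary and tertiary granules with their antimicrobial proteins come later, under the transcription factor C/EBPε. Irf8 is the transcription factor that directs shared granulocyte-monocyte progenitors towards monocytes and dendritic cells, and a low level of it is a mark of the granulocyte side. Dntt and Il7r mark early lymphoid cells.

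The promoters of the 4 granule genes of the rule and of Prtn3, the gene of proteinase 3, are shown because Mpo and Ctsg were spread over nearly all members while Elane and Ms4a3 were held by a few. Elane (chromosome 10, 79886247 to 79888215, plus strand, GRCm38 as annotated by GENCODE M21) starts 3072 bases after the end of Prtn3 on the same strand. Ctsg (chromosome 14, 56099881 to 56102574, minus strand) lies on the chromosome and strand of Mcpt8 (56082166 to 56085273), a protease gene that returns below. The promoters, from 250 bases before to 50 after the start that RefSeq gives on GRCm38.p6, are printed 5′ to 3′ on the gene's strand. They lie at chr11:87793534-87793833 for Mpo (plus strand), chr14:56102525-56102824 for Ctsg (minus), chr10:79886062-79886361 for Elane (plus), chr10:79879417-79879716 for Prtn3 (plus) and chr19:11640802-11641101 for Ms4a3 (minus). For Mpo, Elane and Prtn3 the RefSeq start lies further into the gene than the GENCODE start (87793581, 79886247 and 79874476). Capitals mark matches, on either strand, to the 3 motifs searched, GAGGAA (PU.1), TTGCNNAA (C/EBP) and TGTGGT (RUNX).
Mpo: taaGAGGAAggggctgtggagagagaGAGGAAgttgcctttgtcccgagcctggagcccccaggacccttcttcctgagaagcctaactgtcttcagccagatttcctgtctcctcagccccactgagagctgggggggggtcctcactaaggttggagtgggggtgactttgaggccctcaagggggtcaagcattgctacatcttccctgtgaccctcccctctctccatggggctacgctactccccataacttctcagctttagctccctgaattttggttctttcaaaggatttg
Ctsg: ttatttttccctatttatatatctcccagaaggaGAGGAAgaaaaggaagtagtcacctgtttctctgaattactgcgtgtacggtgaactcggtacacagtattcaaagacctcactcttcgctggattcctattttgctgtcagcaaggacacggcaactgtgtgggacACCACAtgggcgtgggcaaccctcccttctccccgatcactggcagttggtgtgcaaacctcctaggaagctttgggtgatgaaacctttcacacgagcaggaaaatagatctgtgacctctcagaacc
Elane: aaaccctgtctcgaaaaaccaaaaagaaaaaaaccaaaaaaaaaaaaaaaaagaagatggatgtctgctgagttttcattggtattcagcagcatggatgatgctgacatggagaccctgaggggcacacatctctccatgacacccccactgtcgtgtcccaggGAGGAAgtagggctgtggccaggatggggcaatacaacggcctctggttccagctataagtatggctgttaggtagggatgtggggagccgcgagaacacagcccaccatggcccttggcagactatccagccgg
Prtn3: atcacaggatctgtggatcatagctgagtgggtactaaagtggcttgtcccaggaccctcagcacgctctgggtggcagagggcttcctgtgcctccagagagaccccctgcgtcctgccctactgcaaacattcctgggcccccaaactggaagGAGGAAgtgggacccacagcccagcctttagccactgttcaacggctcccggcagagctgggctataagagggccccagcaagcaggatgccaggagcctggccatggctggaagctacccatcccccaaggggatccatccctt
Ms4a3: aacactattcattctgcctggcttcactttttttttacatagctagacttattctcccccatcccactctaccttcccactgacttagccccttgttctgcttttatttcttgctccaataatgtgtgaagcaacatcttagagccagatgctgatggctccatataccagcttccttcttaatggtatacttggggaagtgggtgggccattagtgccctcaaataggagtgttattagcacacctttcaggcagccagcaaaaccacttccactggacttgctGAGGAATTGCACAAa
GAGGAA was present in the promoter of each of the 5 genes, and in 28.3% of 32851 mouse promoters of the same length. With the RefSeq start counted as 1, its matches began at -247 and -224 in Mpo, -216 in Ctsg, -85 in Elane, -95 in Prtn3 and 36 in Ms4a3, all on the gene's strand. TTGCNNAA was found once, at 42 in Ms4a3, directly after GAGGAA, against 10.8% of all promoters. TGTGGT was found once, at -79 on the opposite strand of Ctsg, against 16.8% of all promoters. A match describes these letters and does not show that a factor bound there.

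Members were 225 of 4570 kept cells of library 2 (4.92%, 4.31 to 5.59, exact Clopper-Pearson) and 134 of 3253 kept cells of library 1 (4.12%, 3.46 to 4.86), a difference of 0.804 percentage points (-0.142 to 1.72). The deposited matrix held 4572 and 3312 barcodes of library 2 and library 1, and none of the 61 barcodes removed met the UMI part of the rule. Members were deeply read, with a median of 6339.0 UMIs per cell in library 2 and 5460.0 in library 1, against 3836.0 and 2830.0 in all kept cells. Since a sum of 4 UMIs is reached more easily in a deep cell, the share depends on depth. Among cells of 4000 to 8000 UMIs it was 8.49% in library 2 and 14.9% in library 1. That difference of -6.46 points (-9.55 to -3.66) went the other way round, but the window lay further above the median depth of library 1. With cells thinned to 2000 UMIs and a sum of 2 or more, the shares were 8.07% and 7.94%. Their difference was 0.130 points (-1.26 to 1.47). The libraries shared 32 barcode sequences, 2 of them borne by a member and none by a member in each library. Spp1, the gene deleted in 1 genotype, had 1 UMI in members of library 2 and 0 in members of library 1, and was not used to name the libraries.

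The members were compared with 5343 granule-negative cells (3028 in library 2, 2315 in library 1), which had no UMI of the 4 granule genes, and with 85 Irf8-high granule-positive cells (71 in library 2, 14 in library 1), which had 4 or more granule UMIs and 4 or more Irf8 UMIs. Of 658 granule-positive kept cells, 211 were outside the members for Irf8, 132 for Dntt and 5 for Il7r, some for more than 1 reason, and 126 had 2 or 3 Irf8 UMIs. The 90 members with exactly 4 granule UMIs had Prtn3 at 1914.6 CPM (counts per 1000000 UMIs of the summed cells), against 1694.9 CPM in the 120 otherwise eligible cells with 3. The 119 members with 1 Irf8 UMI had Prtn3 at 2706.8 CPM, against 2137.6 CPM in the 60 cells left out for 2 Irf8 UMIs, and the 86 members with 1 Dntt UMI stood at 2143.0 CPM, against 1899.4 CPM in the 39 left out for 2.

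Most members were cells with a few UMIs of Mpo and Ctsg. Mpo, myeloperoxidase, was detected in 90.2% of members of library 2 and 90.3% of library 1, with a median of 3 UMIs and a maximum of 175 and 83. Ctsg, cathepsin G, was detected in 91.6% and 88.1%, with a median of 4 and 3 UMIs and a maximum of 436 and 136. Both genes together, without Elane or Ms4a3, accounted for 223 of the 359 members, Ctsg alone for 27 and Mpo alone for 26. These values were used by the rule and describe it.

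Elane and Ms4a3 were concentrated in few cells. Elane, neutrophil elastase, was detected in 9.78% of members of library 2 and 12.7% of library 1, and the 10 members with the most held 98.9% and 98.3% of its UMIs. Ms4a3, a membrane protein of granulocyte-monocyte progenitors, was detected in 19.6% and 15.7%, with 83.0% and 92.3% of its UMIs in 10 members. All 4 genes were detected together in 21 members. Lymphoid kept cells (at least 1 Il7r and 4 Dntt UMIs, median 3825.0 UMIs in library 2 and 2767.0 in library 1) are given beside the members. No limit was set on their granule UMIs, so granule RNA of their own and free RNA cannot be told apart in them. Shares were compared after each cell was thinned to 2000 UMIs, which left out 0 members, 526 and 750 granule-negative cells, 0 Irf8-high cells and 15 and 11 lymphoid cells of library 2 and library 1. Mpo was then detected in 58.2% of members of library 2 and 72.4% of library 1, against 10.3% and 8.47% of lymphoid cells, whose shares before thinning were 17.1% and 10.0%. Elane was detected in 7.56% and 5.97% of members, against 0 of 155 and 0 of 59 lymphoid cells, which allows shares of up to 1.94% and 5.08%. Members were chosen on these genes and the rule shuts lymphoid cells out, so both contrasts follow from the choice and test nothing.

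**Figure D1:**
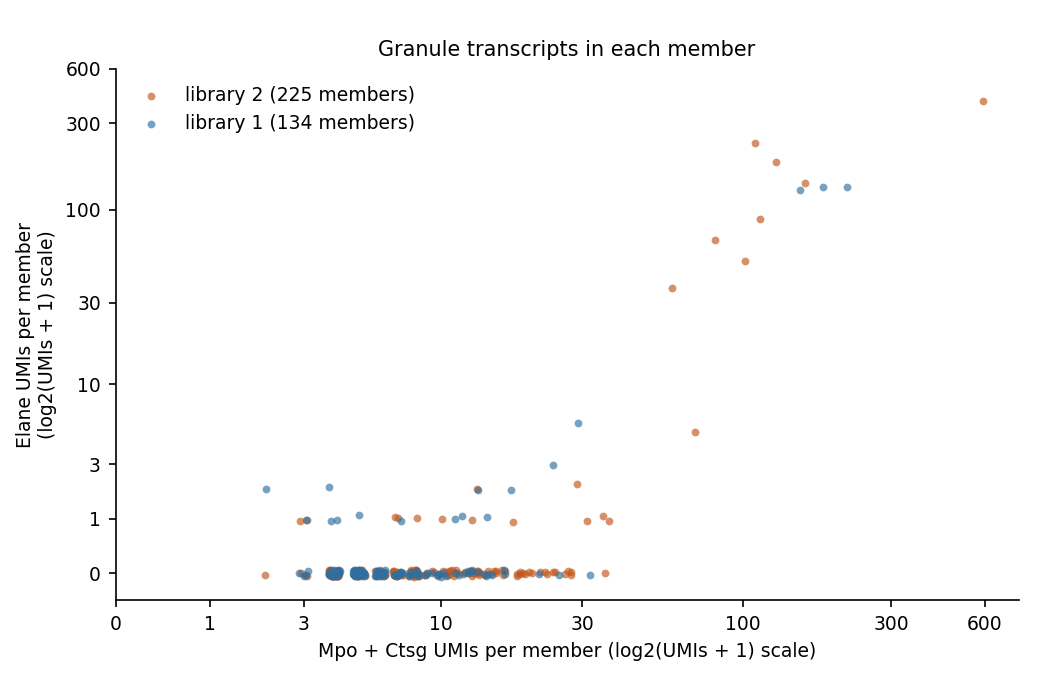
Each point is 1 of the 359 members, with its Mpo plus Ctsg UMIs on the horizontal axis and its Elane UMIs on the vertical axis, both on a log2(UMIs + 1) scale, with a small fixed jitter and colour by library. The 320 members with no Elane UMI lie along the bottom, and 11 members with 37 to 415 Elane UMIs stand apart at the upper right in both libraries.

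Split by granule UMIs per cell, 214 members had 4 to 7, 94 had 8 to 15, 31 had 16 to 31 and 20 had 32 or more, and the 20 cells of the highest band (15 in library 2, 5 in library 1) held 61.3% of all granule UMIs in members. The granule genes took 2.35% of the UMIs in these 20 cells, against 0.0889% in the lowest band. Their sums were 1114, in a cell of 17515 UMIs that was the deepest member, then 388, 369, 353, 346, 339, 315, 249, 166, 166, 116, 84 and 44, and the other 7 cells had 33 to 40. The 11 cells at the top had 37 to 415 Elane UMIs each, 1611 in all and 77.8% of all Elane UMIs among kept cells, while the twelfth had 5.

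The 11 Elane-high members (8 in library 2, 3 in library 1) together carried further genes of granulocyte maturation, unevenly among them, that were at or near 0 in the other 348. Cebpe, the transcription factor of late granulocyte maturation, had a UMI in 9 members, and each of the 9 was among these 11. Cebpe stood at 565.8 CPM in the Elane-high members of library 2 and 285.8 CPM in those of library 1, and had 0 UMIs in the bands below 32 of either library. S100a8, a subunit of calprotectin, had 457 of its 462 member UMIs in these cells, and in the band of 4 to 7 granule UMIs it stood at 4.06 and 4.35 CPM. S100a9, the other subunit, reached 2237.5 and 1036.2 CPM in them, against 2.84 and 1.39 CPM in the other members. These levels rested on few cells. In library 2 the cell of 369 granule UMIs had 189 S100a8 and 127 S100a9 UMIs, and the cells of 166, 166 and 116 had 0 of both. In library 1 the cell of 346 granule UMIs had 29 S100a9 UMIs, and those of 388 and 315 had 0.

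Secondary and tertiary granule genes were scarce even there. In the Elane-high members of library 2, Camp (the antimicrobial cathelicidin) had 14 UMIs, Ngp (neutrophilic granule protein) 12, Chil3 (a chitinase-like protein) 17 and Fcnb (ficolin B) 8, and in those of library 1 Fcnb had 1 UMI and the other 3 genes had 0. Ltf, lactoferrin, had 0 UMIs in members of either library. Wfdc21, a WAP-domain protein, had 44 and 4 UMIs, all in members with 32 or more granule UMIs.

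The same cells had few transcripts of the proteins they were sorted by. Ly6a, which encodes Sca-1, stood at 25.7 CPM in the Elane-high members of library 2 and 0 CPM in those of library 1, against 216.7 and 219.6 CPM in members of 4 to 7 granule UMIs. Cd34 stood at 77.2 and 35.7 CPM, against 425.3 and 345.7 CPM. Flt3 stood at 25.7 and 0 CPM, against 127.3 and 93.5 CPM. Kit had 0 UMIs in the Elane-high members of library 2 and 1 in those of library 1. Ifitm1, an interferon-induced membrane protein gene counted in the stem cell list, stood at 424.4 and 107.2 CPM, against 2678.8 and 2797.5 CPM in the other members. RNA is not surface protein, so these values do not show whether the 11 cells met the sort gate. The sort marker list holds Ly6a, Kit, Cd34 and Flt3, and also Cd48 and Slamf1, which are not among the sort markers given. Summed over its 6 genes, the Elane-high members stood at 282.9 CPM in library 2 and 285.8 CPM in library 1. The sums were 1038.6 and 964.8 CPM in the other members and 1199.2 and 1140.6 CPM in granule-negative cells.

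Prtn3, proteinase 3, differed from this all-or-none pattern. It stood at 1738.0 CPM in library 2 and 2141.7 CPM in library 1 in the band of 4 to 7 granule UMIs, 2345.9 and 2317.7 CPM in that of 8 to 15, 2940.5 and 2982.2 CPM in that of 16 to 31, and 8084.3 and 9249.2 CPM in that of 32 or more. Each step in the bands was thus upward in both libraries. It was also present in cells without a UMI of the 4 granule genes of the rule, at 944.6 CPM in granule-negative cells of library 2 and 997.0 CPM in those of library 1. After thinning, 96.0% and 97.8% of members had a Prtn3 UMI, against 75.2% and 77.7% of granule-negative cells and 45.2% and 54.2% of lymphoid cells. Before thinning the shares were 99.6% and 99.3% of members, against 83.3% and 79.4% of granule-negative cells.

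Several other azurophil genes were highest in the top band. Nkg7, a granule membrane protein, stood at 1672.1 and 2114.1 CPM in members of 32 or more granule UMIs, against 341.4 and 317.5 CPM in those of 4 to 7. Srgn, serglycin, the proteoglycan core on which granule proteases are packed, stood at 1764.2 and 1970.0 CPM, against 822.3 and 826.3 CPM. Prss57, a granule serine protease, stood at 481.8 and 480.5 CPM, against 136.8 and 115.2 CPM, and Cd63, a tetraspanin of granule membranes, at 758.1 and 624.6 CPM, against 189.6 and 187.0 CPM. Cd63 shares 35.1% of the 50-base stretches in its last 300 bases with transcripts of other genes, so its counts are less certain. Ctsd, the lysosomal protease cathepsin D, differed from these and stood at 141.7 and 240.2 CPM, against 163.9 and 139.2 CPM.

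**Figure D2:**
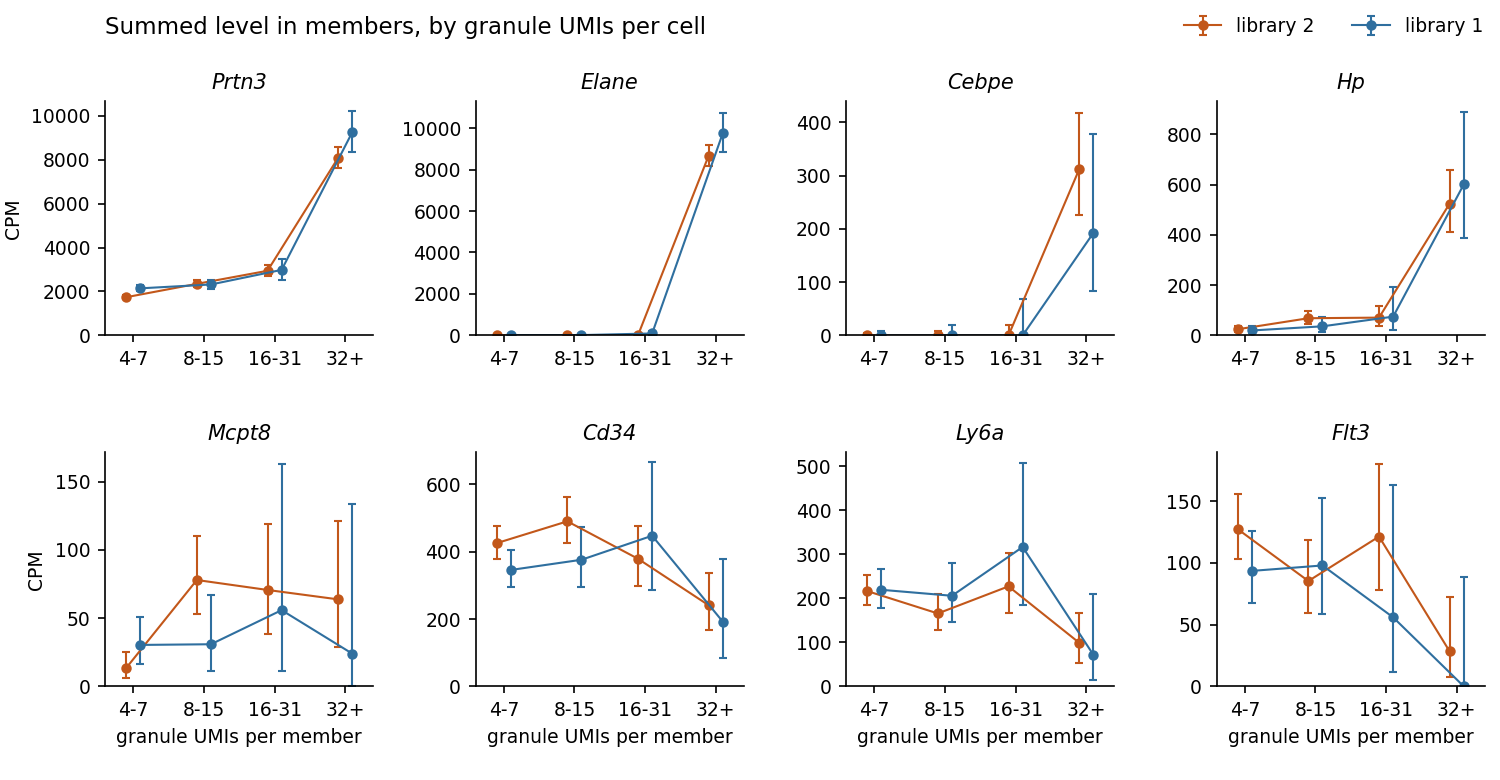
Summed level in CPM (vertical axis, linear, from 0) of 8 genes in members of 4 to 7, 8 to 15, 16 to 31 and 32 or more granule UMIs (horizontal axis), for library 2 and library 1, with bars for exact Poisson 95% intervals. Elane and Cebpe lie at or near 0 until the last band, Prtn3 is present throughout and reaches 8084.3 and 9249.2 CPM there, and Cd34, Ly6a and Flt3 are lowest in the last band.

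Mcpt8, known from basophils as mast cell protease 8, was spread thinly over the members. It had a UMI in 63 of them (44 in library 2, 19 in library 1), of which 2 were Elane-high, as were 11 of all 359 members, with 89 UMIs in all and at most 5 in a cell. Their median granule sum was 12, against 6 in members of each library. Mcpt8 stood at 43.7 CPM in members of library 2 and 32 CPM in those of library 1, against 3.61 and 1.61 CPM in granule-negative cells, log2 ratios of 3.60 (3.0 to 4.22) and 4.31 (3.20 to 5.54). After thinning, 8.44% and 7.46% of members had a Mcpt8 UMI, against 0.639% and 0.256% of granule-negative cells and 0.645% of lymphoid cells of library 2 and 0 of 59 in library 1, which allows up to 5.08%. Before thinning the shares were 19.6% and 14.2% of members, against 1.12% and 0.432% of granule-negative cells.

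Other basophil and mast cell genes were sparse in those 63 members. Prss34, a basophil protease, had 0 UMIs in them, Ms4a2, a chain of the IgE receptor, had 1, Cpa3, carboxypeptidase A3, had 5, and Hdc, histidine decarboxylase, had 4. Over the whole list of 12 basophil, mast cell and eosinophil genes, 5 had a UMI in members of library 2 and 4 in those of library 1. The list summed to 52.4 and 41.4 CPM in members, against 6.17 and 5.16 CPM in granule-negative cells. Mcpt8 is 1 of the 12 genes and made up most of the sum in members, at 43.7 and 32 CPM. What these cells are was not tested.

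Against granule-negative cells, 51 of 9450 measured genes (0.540%) were at least 2-fold higher in members in each library and 254 (2.69%) at least 2-fold lower. Genes were measured where both sets together had 50 UMIs, and the 7 genes of the rule were left out. Below, list genes are also counted as higher or lower in both libraries at any size of ratio. The share of all measured genes that did so is not given, in this comparison or the others, so those counts have no background. The median log2 ratio of all measured genes was -0.02. The highest ratios outside the rule were those of S100a8, Cebpe, Wfdc21, S100a9, Dmkn, Ly6c2, Trem3, Hp, Mcpt8, Lcn2, Anxa3 and Id1. S100a8 stood at 262.9 CPM in members of library 2 and 94.7 CPM in those of library 1, against 2.28 and 2.74 CPM in granule-negative cells, log2 ratios of 6.85 (6.26 to 7.51) and 5.11 (4.33 to 5.97). Without the 20 members of 32 or more granule UMIs, 33 genes were called higher and 232 lower, and S100a8 had 5 UMIs left in all members.

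Some of the highest genes were still called without that band, with smaller ratios. Hp, haptoglobin, stood at 90.1 and 60.1 CPM in members, against 5.41 and 4.03 CPM in granule-negative cells, and its mean log2 ratio of 3.98 was 2.93 without the 20 cells. Trem3, a myeloid receptor, stood at 51.8 and 37.4 CPM, against 1.14 and 2.42 CPM, with a mean of 4.73 that was 3.29 without them. Id1, an inhibitor of helix-loop-helix transcription factors, stood at 19.5 and 17.3 CPM, against 2.75 and 2.90 CPM, with a mean of 2.70 that was 2.36. Anxa3, annexin A3, had a mean of 2.74 that was 1.82. Ly6c2, the surface antigen Ly-6C2, stood at 62.5 and 46.7 CPM, against 1.80 and 2.09 CPM, but 637.7 and 792.8 CPM in the top band, and it shares 29.9% of its 3′ 50-base stretches with other genes.

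Of the 19 measured azurophil granule genes outside the rule, 9 were higher in members in both libraries, 4 were lower in both, and 2 were called higher, where 0.540% of all measured genes were. Their median log2 ratio was 0.25 (0.15 in library 2, 0.32 in library 1), against -0.02 over all measured genes. The 2 called were Prtn3 and Rab44. Prtn3 stood at 2667.8 and 2642.3 CPM in members against 944.6 and 997.0 CPM in granule-negative cells. Its log2 ratios were 1.5 (1.44 to 1.55) and 1.41 (1.33 to 1.48). Rab44, a GTPase of granule release, stood at 20.8 and 25.4 CPM against 5.32 and 7.09 CPM. Cst7, the protease inhibitor cystatin F, was at 269.6 and 202.8 CPM, against 157.0 and 125.8 CPM, below 2-fold. Gusb, the lysosomal enzyme beta-glucuronidase, had log2 ratios of 0.29 and 0.42, and Ctsd had -0.22 and -0.10.

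The late neutrophil granule list had 5 measured genes of 16, of which 3 were higher and 1 was lower in both libraries. The 3 were S100a8, S100a9 and Lcn2, lipocalin 2, and were called higher, where 0.540% of all measured genes were. The list's median was 3.01, and it rested on the top band. The 16 genes summed to 4534.6 CPM there in library 2 and 2618.6 CPM in library 1. They summed to 35.7 and 57.9 CPM in the members below that band and 53.3 and 54.0 CPM in granule-negative cells.

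No measured granulocyte transcription factor other than Cebpe was called. Of 8 measured, 3 were higher in both libraries and 1, Cebpe, was called, with a median of 0.11. Of all measured genes, 0.540% were called higher. Cebpa, which starts granulocyte fate, stood at 10.8 and 26.7 CPM in members, against 5.79 and 4.99 CPM in granule-negative cells, ratios of 0.89 and 2.42 that lay on opposite sides of 2-fold. Spi1, which encodes PU.1, stood at 22.9 and 16 CPM, against 20.3 and 17.2 CPM. Gfi1, a repressor needed for neutrophils, stood at 6.05 and 5.34 CPM, against 4.75 and 5.64 CPM.

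Of 12 measured myeloid growth factor receptors, 5 were higher and 4 lower in both libraries, with a median of 0.07. In all, 1 was called higher, where 0.540% of all measured genes were. The called gene was Csf1r, the macrophage colony-stimulating factor receptor, at 9.41 and 12 CPM in members against 4.18 and 3.38 CPM in granule-negative cells. Csf3r, the granulocyte colony-stimulating factor receptor, stood at 34.3 and 61.4 CPM, against 29.3 and 25.1 CPM, with ratios of 0.22 and 1.29.

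Of 11 measured monocyte and macrophage genes, 5 were called higher and 2 lower, where 0.540% and 2.69% of all measured genes were. The median of the genes' mean ratios was 0.08, and the medians within library 2 and library 1 were 0.43 and 0.40. Those higher were Ly6c2, Ccr2 (a chemokine receptor of monocytes, 13.4 and 14.7 CPM in members against 1.90 and 2.74 CPM), Cx3cr1, Csf1r and Ms4a6c (96.8 and 104.1 CPM against 47.4 and 49.0 CPM). Those lower were Ctss, cathepsin S, at 39.7 and 42.7 CPM in members against 95.4 and 96.8 CPM in granule-negative cells, and Mpeg1, a pore-forming protein of macrophages.

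Lymphoid and antigen-presentation genes lay lower in members. Of 11 measured lymphoid genes outside the rule, 10 were lower in both libraries and 4 (Ly6d, Lax1, Blnk and Il12a) were called, where 2.69% of all measured genes were, with a median of -0.97. Ly6d, a surface marker of B-lineage progenitors, had 1 UMI in members of library 2 and 0 in those of library 1, against 36.8 and 51.1 CPM in granule-negative cells, a log2 ratio of -5.78 (-11.08 to -3.29) in library 2 and, against a floor of 3 UMIs, at most -3.67 in library 1. Il12a, a cytokine subunit, stood at 33.6 and 38.7 CPM, against 108.7 and 123.1 CPM.

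Of 9 measured dendritic cell genes, 7 were lower in both libraries and 4 were called, where 2.69% of all measured genes were, with a median of -1.83. The 4 were Cd74, the class II invariant chain, and the class II genes H2-Aa, H2-Ab1 and H2-Eb1. Cd74 stood at 35.6 and 45.4 CPM in members, against 165.1 and 517.5 CPM in granule-negative cells, ratios of -2.21 (-2.63 to -1.82) and -3.51 (-4.04 to -3.03). Between the libraries the log2 ratio of Cd74, library 2 over library 1, was -0.35 (-1.0 to 0.32) in members and -1.65 in granule-negative cells.

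The rule's limits on Irf8, Dntt and Il7r were not set on granule-negative cells, which had Dntt at 737.1 and 595.4 CPM, against 39.0 and 37.4 CPM in members. Against granule-negative cells under the same limits and of 4000 to 8000 UMIs, the lymphoid median was -0.10 and the dendritic median -0.48. The parts of the limits and of depth in these list medians were not tested further. Beside Ly6d and the class II genes, the lowest ratios were those of Ddx4, a germ-cell RNA helicase, at 3 and 1 UMIs in members against 31.8 and 24.8 CPM with ratios of -3.98 (-6.26 to -2.42) and -4.22 (-9.53 to -1.72), and of Arpp21, Armc3, Cmah, AA467197, Gimap7, Sla2 and Zfp467, each with 0 to 8 UMIs in members of a library.

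Most measured stem cell genes were lower in members but still present, while the sum of the list was not lower. Of 17 measured, 13 were lower in both libraries and 2 were called lower, where 2.69% of all measured genes were. Their median was -0.69, and -0.32 among cells of 4000 to 8000 UMIs. With the rule's limits also set on granule-negative cells in that window it was -0.57. Hlf, a stem cell transcription factor and 1 of the 2 called, stood at 25.5 and 25.4 CPM in members, against 61.3 and 62.3 CPM in granule-negative cells. Procr, the endothelial protein C receptor, was the other. Hoxa9 stood at 79.3 and 81.4 CPM, against 102.5 and 105.5 CPM, and Ifitm1 at 2560.9 and 2697.0 CPM, against 2419.7 and 2567.6 CPM. The 20 listed genes, of which Ifitm1 weighed most, summed to 4556.4 and 4714.8 CPM in members, against 4451.7 and 4627.1 CPM. Car2, carbonic anhydrase 2, was the called gene of the megakaryocyte and erythroid list, at 195.0 and 158.8 CPM against 504.5 and 397.8 CPM, and after thinning it was detected in 28.9% and 26.1% of members, against 52.4% and 44.4% of granule-negative cells. Before thinning the shares were 64.4% and 52.2% of members, against 66.9% and 55.3%.

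Of 5 measured genes of the sort marker list, 4 were lower in members in both libraries and none was called. The median was -0.24, and 0.04 among cells of 4000 to 8000 UMIs. Ly6a stood at 193.0 and 214.9 CPM in members, against 343.9 and 367.3 CPM in granule-negative cells. Cd48, a marker of progenitors past the stem cell that was not among the sort markers given, was the higher one. It stood at 242.0 and 246.9 CPM against 181.2 and 175.3 CPM. Cd34 stood at 419.5 and 352.3 CPM, against 481.1 and 429.0 CPM. After thinning, 55.6% and 53.7% of members had a Cd34 UMI, against 60.2% and 55.2% of granule-negative cells, and 22.7% and 17.9% had a Flt3 UMI, against 26.3% and 21.9%. Before thinning the Cd34 shares were 88.9% and 82.8% of members, against 77.5% and 64.5%, and the Flt3 shares 50.2% and 37.3%, against 38.6% and 28.2%. The members below the top band summed to 1048.9 and 962.2 CPM over the sort marker list, against 1199.2 and 1140.6 CPM in granule-negative cells.

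All 24 G2 and mitosis genes were higher in members in both libraries, none of them 2-fold in each, with a median of 0.78 (0.65 in library 2, 0.86 in library 1). Birc5, survivin, stood at 595.0 and 447.1 CPM in members, against 348.1 and 208.0 CPM in granule-negative cells, and Ube2c, a ubiquitin-conjugating enzyme of mitotic exit, at 460.5 and 261.6 CPM against 254.6 and 124.4 CPM. After thinning, 84.4% and 73.9% of members had 3 or more UMIs of the list, against 46.8% and 37.7% of granule-negative cells, and before thinning 95.6% and 94.8%, against 50% and 35.6%. S phase genes had a median of -0.01, with 7 of 24 higher and 6 lower in both libraries. Among cells of 4000 to 8000 UMIs the G2 and mitosis median was 0.14, so depth moved with it, and its part was not tested beyond that.

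Genes of protein folding and secretion in the endoplasmic reticulum were higher in both libraries for 22 of 24 genes of the list, with a median of 0.43 that was 0.29 without the top band and 0.26 among cells of 4000 to 8000 UMIs. Calr, the chaperone calreticulin, stood at 1255.9 and 1250.4 CPM in members, against 662.1 and 620.7 CPM in granule-negative cells. Along the bands it was at 1003.8 and 1011.1 CPM, then 1207.1 and 1205.2, then 1283.3 and 1621.6, and 2678.2 and 3627.6 CPM in the highest. Hspa5, the chaperone BiP, stood at 520.4 and 385.7 CPM in members, against 332.2 and 265.8 CPM. Ribosome biogenesis genes were higher for 16 of 19, with a median of 0.36, among them Ncl, nucleolin, at 1786.4 and 1652.1 CPM against 1398.8 and 1178.6 CPM.

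Immediate early and interferon-stimulated genes lay lower in members. All 14 measured immediate early genes were lower in both libraries, with a median of -0.97, and Fos, Ier5 and Btg2 were called, Ier5 on 1 UMI in members of each library. Fos, a subunit of AP-1, stood at 27.6 and 40.0 CPM in members, against 68.4 and 93.4 CPM in granule-negative cells. Of 20 interferon-stimulated genes, 19 were lower in both libraries and 6 were called, with a median of -0.88. Beside both lists, 2.69% of all measured genes were called lower. Irf7, a transcription factor of the interferon response, stood at 18.8 and 20.0 CPM, against 53.3 and 40.4 CPM, and Rtp4 at 65.2 and 49.4 CPM, against 131.9 and 112.9 CPM. Of the other 4, Ifit1 had 4 and 3 UMIs in members, and Ifit2, Stat2 and Rsad2 had 1 to 5 per library. Among cells of 4000 to 8000 UMIs the medians were -0.47 for immediate early and -0.41 for interferon-stimulated genes.

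**Figure D3:**
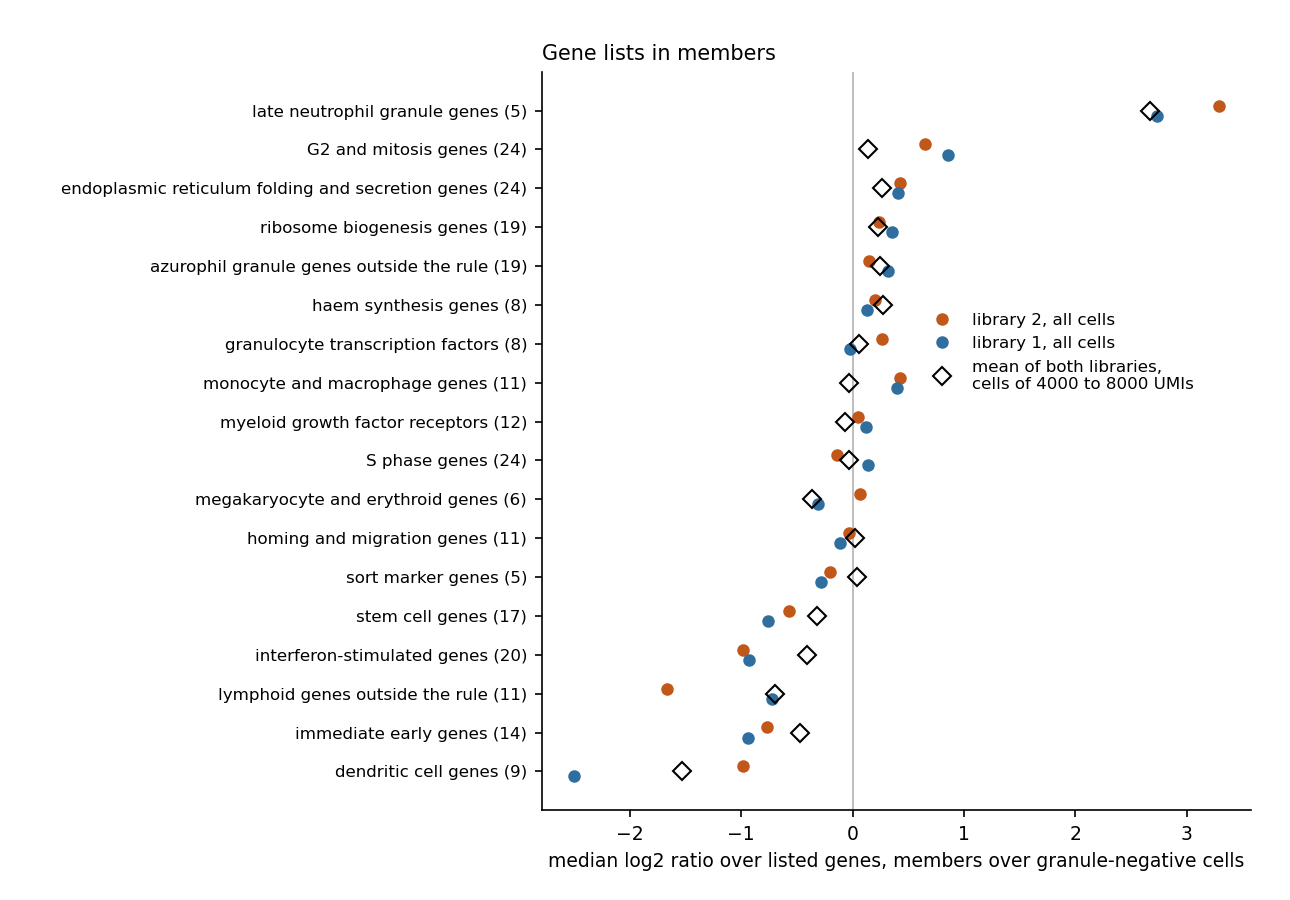
Median log2 ratio of each gene list, members over granule-negative cells (horizontal axis), with the number of measured genes in brackets, for library 2 and library 1 over all cells and, as open diamonds, the mean of both libraries among cells of 4000 to 8000 UMIs. The G2 and mitosis list lies at 0.65 and 0.86 over all cells and at 0.14 among cells of like depth, and the immediate early and interferon-stimulated lists lie below 0 in each.

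Against Irf8-high granule-positive cells, 41 of 4835 measured genes (0.848%) were at least 2-fold higher in members in each library and 19 (0.393%) at least 2-fold lower. The Irf8-high cells of library 1 were 14 in number, so ratios in library 1 carry wide intervals. Irf8-high cells were deeper than members, with a median of 8259.0 UMIs in library 2 and 6484.5 in library 1, against 6339.0 and 5460.0. The rule's limits on Dntt and Il7r were not set on them, and 68 of the 85 met both. Both sets had granule transcripts by choice: in library 2 members stood at 813.5 CPM of Mpo and 1409.2 CPM of Ctsg, against 449.8 and 1069.4 CPM in Irf8-high cells, and in library 1 at 911.5 and 1142.3 CPM, against 992.5 and 1462.7 CPM. Prtn3 was at 2667.8 CPM in members of library 2 and 2642.3 CPM in those of library 1, against 2754.9 and 4064.2 CPM in Irf8-high cells.

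Monocyte and macrophage genes lay lower in members. All 6 measured monocyte and macrophage genes were lower in both libraries and 3 were called, where 0.393% of all measured genes were, with a median of -1.62, against -0.01 over all measured genes. Ly86, the MD-1 partner of a Toll-like receptor homologue, stood at 4.71 and 22.7 CPM in members, against 149.4 and 156.7 CPM in Irf8-high cells, ratios of -4.99 (-6.34 to -3.89) and -2.79 (-3.88 to -1.68). Ms4a6c stood at 96.8 and 104.1 CPM, against 278.4 and 459.7 CPM, and Ctss at 39.7 and 42.7 CPM, against 144.3 and 146.3 CPM.

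The other genes lowest in members were Ctsh (cathepsin H), Slpi (a secreted leukocyte protease inhibitor), Tifab, Rassf4, Lgals1, Il6st, Cox6a2, Clec12a and Fcer1g. Lgals1, galectin-1, had the most UMIs of them, at 286.4 and 425.7 CPM in members against 999.8 and 1629.9 CPM in Irf8-high cells, ratios of -1.80 (-1.99 to -1.62) and -1.94 (-2.22 to -1.65). Slpi stood at 22.2 and 21.4 CPM, against 79.8 and 135.8 CPM, and Fcer1g, the shared chain of Fc receptors, at 30.9 and 32 CPM, against 76.4 and 104.5 CPM. The intervals of Tifab, Rassf4, Il6st and Cox6a2 reached above 0 in library 1.

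Genes higher in members than in Irf8-high cells were, beside S100a8, Ctla2a, Cd63, Krt18, Hbb-bt, Tnfrsf18, Pglyrp1, Adgrg1, Nfe2, Dapp1, Car2 and Vamp5. The intervals of Krt18, Tnfrsf18 and Pglyrp1 reached below 0 in library 1, on 1, 1 and 2 UMIs in its Irf8-high cells. Ctla2a, a cysteine protease inhibitor, stood at 215.8 and 181.5 CPM in members, against 37.3 and 20.9 CPM in Irf8-high cells, ratios of 2.53 (1.91 to 3.23) and 3.12 (1.24 to 6.18). Cd63 stood at 219.2 and 193.5 CPM, against 37.3 and 41.8 CPM, ratios of 2.55 (1.93 to 3.25) and 2.21 (0.82 to 4.11), and after thinning it was detected in 29.3% and 31.3% of members, against 7.04% of Irf8-high cells in library 2, 0 of 14 in library 1, and 30.1% and 28.4% of granule-negative cells. Before thinning the Cd63 shares were 60.0% and 56.7% of members, against 21.1% and 21.4% of Irf8-high cells and 40.8% and 34.6% of granule-negative cells. Nkg7 stood at 490.8 and 447.1 CPM, against 176.5 and 114.9 CPM.

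Of 3 measured megakaryocyte and erythroid genes, Car2 and Hbb-bt, a beta-globin gene, were called higher in members, and Tfrc, the transferrin receptor, was lower in both libraries and not called, at 22.2 and 13.3 CPM in members against 28.9 and 20.9 CPM in Irf8-high cells. Nfe2, a transcription factor of megakaryocytes and erythroid cells, stood at 76.6 and 69.4 CPM in members, against 35.6 and 10.4 CPM in Irf8-high cells, Adgrg1, an adhesion receptor of stem cells, at 154.6 and 138.8 CPM against 66.2 and 20.9 CPM, and Car2 at 195.0 and 158.8 CPM against 83.2 and 31.3 CPM. Erg, a stem cell transcription factor, stood at 34.3 and 26.7 CPM, against 10.2 and 10.4 CPM. The library 1 values of Hbb-bt, Nfe2, Adgrg1 and Car2 rested on 1, 1, 2 and 3 UMIs in Irf8-high cells. Hbb-bt also shares 36.3% of its 3′ 50-base stretches with other genes. The 7 measured stem cell genes had a median of 0.43, with 5 higher in both libraries and 1 called. Beside both lists, 0.848% of all measured genes were called higher.

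Of the 17 measured azurophil genes outside the rule, 5 were higher and 7 lower than in Irf8-high cells in both libraries, with a median of -0.05. Nkg7 and Cd63 were called higher, where 0.848% of all measured genes were. G2 and mitosis genes were lower in members for 19 of 24, with a median of -0.28, and after thinning 84.4% and 73.9% of members had 3 or more UMIs of that list, against 66 of 71 and 14 of 14 Irf8-high cells. Of 7 measured dendritic cell genes, 3 were lower in both libraries and none was called, with a median of 0.10 in library 2 and -1.68 in library 1. Class II genes split by library: Cd74 stood at 35.6 CPM in members against 22.1 CPM in Irf8-high cells of library 2, and at 45.4 CPM in members against 867.2 CPM in the 14 Irf8-high cells of library 1.

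**Figure D4:**
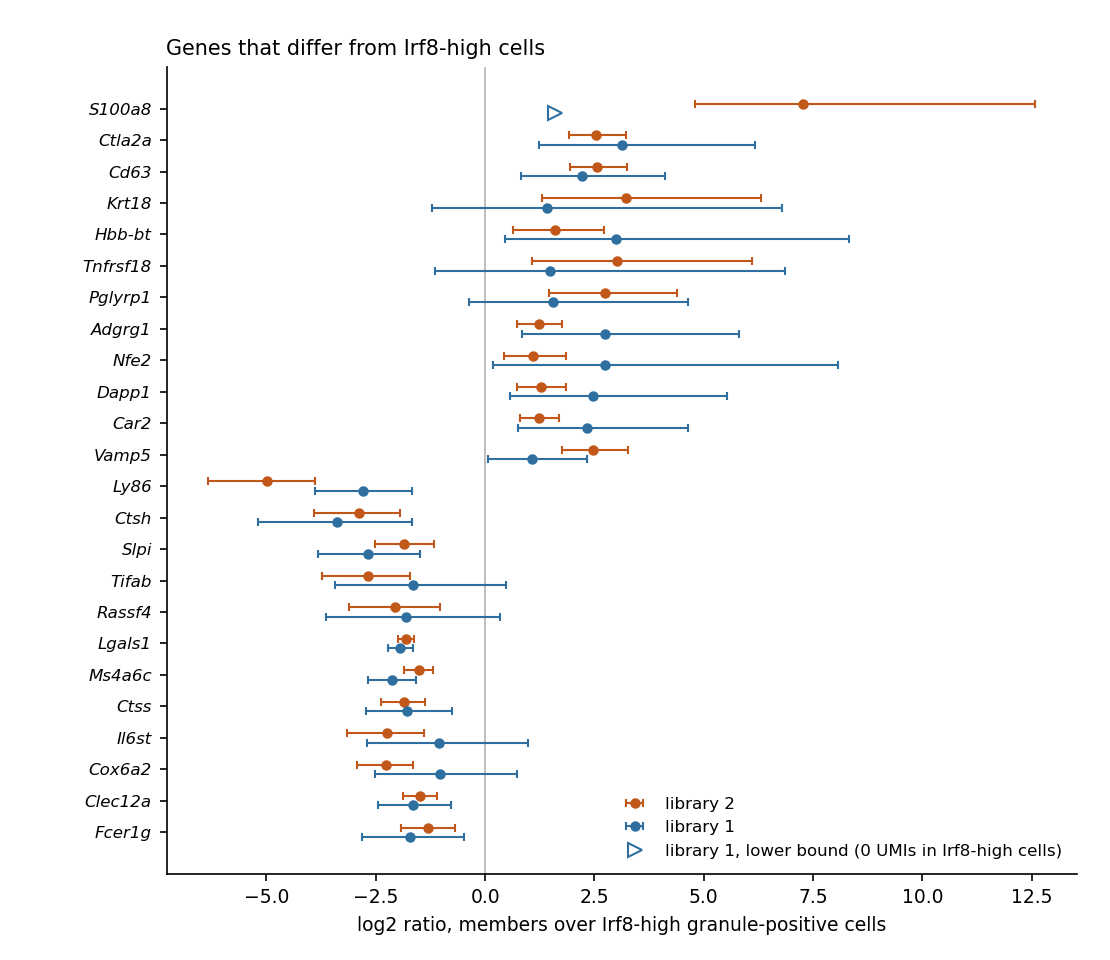
Log2 ratio of members over Irf8-high granule-positive cells (horizontal axis) for the 12 genes highest and the 12 lowest in members, in library 2 and library 1, with exact conditional Poisson 95% intervals and an open triangle for a lower bound. Ly86 lies at -4.99 and -2.79 and Lgals1 at -1.80 and -1.94, and the wider bars of library 1 follow from its 14 Irf8-high cells.

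Between the libraries, 91 of 4365 measured genes (2.08%) were at least 2-fold higher in members of library 2 with an interval that left out 1, and 20 (0.458%) were at least 2-fold lower. Of these 111 genes, 34 were at least 2-fold the same way between the libraries in granule-negative cells. The share of all measured genes that were 2-fold apart in granule-negative cells is not given, so the 34 have no background. Ppia, cyclophilin A, stood at 910.3 CPM in members of library 2 and 140.1 CPM in those of library 1, a log2 ratio of 2.70 (2.41 to 3.0), and its ratio in granule-negative cells was 2.78. Pgk1, a glycolytic enzyme, had a ratio of 4.13 (2.54 to 6.43) in members and 2.93 in granule-negative cells. Rps27rt, a retrogene of a ribosomal protein, stood at 180.2 CPM in library 2 and 689.9 CPM in library 1, ratios of -1.94 (-2.16 to -1.72) in members and -1.65 in granule-negative cells.

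Several of these genes have close copies elsewhere, whose reads the authors' counting could have split. Of the 8 highest, Mrpl23, Gstp1, Kpna2 and Erh share 93.2% or more of their 3′ 50-base stretches with other genes, Ppia 21.5%, Polr2k 6.8%, and Pgk1 and Akr1b3 none. Kpna2 had 50 UMIs in members of library 2 and 0 in library 1, at least 3.07 on the log2 scale higher. Of the 8 lowest, Rps27rt shares 88.4% and Grcc10 97.6%. Vill, Msh6, Dynll2 and Mzt2 had ratios from -1.32 to -1.10 in members and from -0.16 to 0.08 in granule-negative cells, on 53 to 81 UMIs each, and Usp50 and Zfp36 had -1.26 and -1.10 in members and -1.14 and -0.58 in granule-negative cells.

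Azurophil granule genes outside the rule differed little between the libraries. Prtn3 had a ratio of 0.01 (-0.06 to 0.09), and the 17 measured azurophil genes a median of 0.13, against 0.12 over all genes. All 24 G2 and mitosis genes were higher in members of library 2, with a median of 0.62, and in granule-negative cells they also stood higher there, Birc5 at 348.1 CPM in library 2 and 208.0 CPM in library 1. Late neutrophil granule genes had a median of 1.47 over 3 measured genes. Of these, 2, S100a8 and S100a9, were called higher in members of library 2, where 2.08% of all measured genes were. The other 1 was lower there and not called. Library 2 had 8 of the 11 Elane-high members, and 1 of its cells held 189 of its 391 S100a8 and 127 of its 178 S100a9 member UMIs.

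On genes the rule did not use, members made up more of the members' nearest neighbours than of all kept cells, though most neighbours were not members. In a space of 30 principal components of 2000 variable genes without the 7 rule genes, 23.8% of a member's 15 nearest neighbours were members (26.3% in library 2, 19.7% in library 1), against 4.59% of kept cells. By band, from 4 to 7 up to 32 or more granule UMIs, the share was 19.3%, 26.9%, 30.8% and 47.0%. Granule-negative cells made up 28.8% of members' neighbours, against 68.3% of kept cells, and Irf8-high cells 4.22%, against 1.09%. Granule-negative cells had 5.02% member neighbours and Irf8-high cells 12.5%. Of the neighbours of Irf8-high cells, 29.5% were Irf8-high. Cells of library 2 were 80.7% of the neighbours of its members and 51.5% for members of library 1, against 58.4% of kept cells. Depth was not held equal in this comparison, and by median UMIs members were deeper than granule-negative cells but less deep than Irf8-high cells.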

How the data were processed

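The study has 2 samples, 1 of each genotype, in 1 matrix of 27998 genes by 7884 barcodes. Its values are UMI counts the authors deposited (whole numbers, at most 436). They were made with Cell Ranger 1.1 on mm10, per the submitters' processing notes, and the aligner's settings are not given in the sources used here. Barcodes with fewer than 500 genes or at least 10% mitochondrial UMIs were removed (61), and no doublet caller was run. An alternative left out the 5% of cells with the most UMIs.

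The members and gene lists were chosen with earlier results of these data known. UMIs were summed over cells per library and scaled to CPM. Ratios were taken per library for genes with at least 50 UMIs in the sets compared, and a gene was called where both libraries passed 2-fold the same way. Between libraries, a call also needed an interval that left out 1. Intervals are 95% (exact Poisson for levels, exact conditional Poisson for ratios, exact Clopper-Pearson for shares). A set at 0 UMIs was given a floor of 3 UMIs per library, and where that floor lay above the level it faced no ratio was given. The 12 highest and 12 lowest called genes were named in each comparison between cell sets, and 8 and 8 between libraries, leaving out rule genes, Gm and Rik genes, ribosomal protein and mitochondrial genes, with 2 to 4 per list. Further genes of the lists, such as Ctsd, Gusb, Prss57 and Srgn, were named after their values were seen. Of the listed genes, 3 (Cebpd, Trac and Trbc2) had no matching row.

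Gene positions are from GENCODE M21 on GRCm38 and promoters from RefSeq on GRCm38.p6. Neighbours used 2000 variable genes, 30 components and 15 neighbours. The ratio code was tested on simulated counts. Python 3.11.15, numpy 2.4.6, scipy 1.17.1, pandas 2.3.3, scikit-learn 1.9.0 and matplotlib 3.10.9 were used. Alternatives covered cell filters, the rule's limits, thinning, gene minimums, scaling and the mean of cells. Windows of depth, equal limits for granule-negative cells and the exclusion of the top granule band were chosen after the data were seen.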

Additional observations from a re-analysis of the deposited data

Results flagged for a closer look

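In 5 lists of 3 or more measured genes the median log2 ratio of members over other cells lay on opposite sides of 0 in the libraries and at least 0.1 from it in each. Lists nearer to 0 in either library are not given here, apart from dendritic cell genes over Irf8-high cells, which lay just under that limit at 0.10 in library 2 and at -1.68 in library 1. These differences were not tested, since each genotype had 1 library. For S phase genes, members over granule-negative cells, the median was -0.14 in library 2 and 0.14 in library 1. The other 4 were members over Irf8-high granule-positive cells, of which library 1 had 14. Granulocyte transcription factors had 0.15 in library 2 and -0.27 in library 1, over 3 measured genes. Myeloid growth factor receptors had -0.29 and 0.14, over 7 genes. Lymphoid genes outside the rule had -0.26 and 0.14, over 6 genes. Immediate early genes had 0.94 and -0.21, over 8 genes.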

How the results depend on the processing

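Members were 4.92% of kept cells in library 2 and 4.12% in library 1. The shares were 5.79% and 6.15% under a stricter cell filter (difference -0.363 points), 6.30% and 5.87% with a granule sum of 3 or more, 2.17% and 1.41% with 8 or more, 2.43% and 2.40% with Irf8 and Dntt at 0, 8.07% and 7.94% with cells thinned to 2000 UMIs and a sum of 2 or more, and 3.87% and 2.75% without the top 5% of UMIs. In cells of 4000 to 8000 UMIs, chosen after seeing the data, they were 8.49% and 14.9% (difference -6.46 points).

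Against granule-negative cells, 51 genes were called higher in members. The count was 33 under the stricter cell filter, 95 with a sum of 8 or more, 87 with Irf8 and Dntt at 0, 80 from the mean of cells, 17 with a minimum of 200 UMIs, 180 with 1 UMI, and, chosen after seeing the data, 33 without the top granule band, 18 in cells of 4000 to 8000 UMIs and 15 with equal limits as well. The 254 called lower became 144 with thinned cells, 108 with a minimum of 200 UMIs, 71 in cells of 4000 to 8000 UMIs and 32 with equal limits as well.

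Against Irf8-high cells, the 41 called higher became 26 with a sum of 8 or more, 24 with Irf8 and Dntt at 0, 13 without the top 5% of UMIs, 14 with a minimum of 200 UMIs, and 27 both without the top band and in cells of 4000 to 8000 UMIs. The 19 called lower became 10 with a sum of 8 or more, 11 with thinned cells, 4 with a minimum of 200 UMIs and 147 with 1 UMI.

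Between the libraries, the 91 called higher in library 2 became 56 with a sum of 8 or more, 54 with thinned cells, 19 with a minimum of 200 UMIs and 196 with 1 UMI. The 20 called lower became 13 with Irf8 and Dntt at 0, 11 with thinned cells, 12 without the top 5%, 8 with a minimum of 200 UMIs and 119 with 1 UMI. The cause was not tested beyond what each setting does to the cells and genes counted.

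No named gene changed direction. Of 306 values for the 24 genes named against granule-negative cells, 14 were no longer called, as were 31 of 278 for those named against Irf8-high cells and 4 of 154 between libraries. Most of the 31 came from 1 setting: with cells thinned to 2000 UMIs, 14 of the 24 genes named against Irf8-high cells could be measured, and 11 of them were no longer called (Car2, Cd63 and Lgals1 were). Genes under the minimum in a setting are in none of these counts, and without the top granule band 17 of the 24 named against granule-negative cells were left. No paired analysis was possible because each genotype had 1 library with no replicate number, and for the same reason no replicate could be left out. Members were deeper than granule-negative cells and less deep than Irf8-high cells, and their shares moved with depth as with the limits of the rule. Library 1 values against its 14 Irf8-high cells rest on few UMIs.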

Other observations

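Granule maturation genes were also found in a few cells outside the members. Of 15 kept cells with 10 or more Elane UMIs, 11 were members and 2 were Irf8-high, and the 15 held 93.3% of all Elane UMIs. Cebpe had a UMI in 8 kept cells outside the members, 4 in each library. Mcpt8 had a UMI in 248 kept cells, of which 63 were members, 9 Irf8-high and 44 granule-negative.

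Other lists differed little between members and granule-negative cells. Of 8 haem synthesis genes, 6 were higher in both libraries and none was called, with a median log2 ratio of 0.15. Of 11 homing and migration genes, 2 were higher and 5 lower in both libraries, with a median of -0.15. In all, 1 was called higher, where 0.540% of all measured genes were. T and NK cell genes had 1 UMI in members of library 2 and 3 in those of library 1, with 0 genes measured. Members of 32 or more granule UMIs had 25.3% of their nearest neighbours among themselves and 15% among Irf8-high cells, against 0.256% and 1.09% of kept cells.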
